A study of Mus musculus with 6 samples.

Results

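The genes described here encode parts of motile cilia, the beating hairs of the ependymal cells that line the brain's ventricles. They are the protein-coding rows whose symbol begins with Cfap, Dnah, Dnai, Tekt or Drc and a number, or with Rsph, plus Foxj1 and Dynlrb2. The rule found 65 genes among the 45777 of the table. Of these, 33 are CFAP genes, 15 are axonemal dynein heavy chains (5 of the outer and 10 of the inner arm), 7 are radial spoke genes, 5 are tektins and 3 belong to the nexin-dynein regulatory complex. The remaining members are Foxj1 and Dynlrb2, and 0 rows carried a Dnai symbol.

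The libraries were made from striatal RNA of offspring aged 6 weeks, all of ICR, an outbred mouse strain. In the methylphenidate-sired group (n = 3), the father had received methylphenidate, a blocker of the dopamine and noradrenaline transporters, at 15 mg/kg under the skin for 21 days. In the saline-sired group (n = 3), the father had received saline at 10 mL/kg on the same schedule. In both groups the fathers were 6 weeks old at the start and the mothers had received no drug, and the labels list 2 female and 1 male offspring per group. The sources used here do not give the number of fathers or litters. Animals of a group may therefore be related, and a p-value covers no more than the spread among these 6 samples.

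The axoneme of a motile cilium is a ring of microtubule doublets around a central pair. Outer and inner dynein arms on the doublets slide them against each other, radial spokes and the central pair time the strokes, the nexin-dynein regulatory complex links neighbouring doublets, and tektins run inside the doublet wall. FOXJ1 is the transcription factor that switches on most of these genes in multiciliated cells, together with factors of the RFX family. In the forebrain such cells form the ependyma of the lateral ventricle, which borders the striatum. The choroid plexus epithelium, which hangs in the ventricle, also carries cilia and expresses part of the same programme. Several CFAP, RSPH and DRC genes are not confined to motile cilia and are transcribed in many cell types.

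The libraries held between 31360042 and 38844724 counts. Columns of the table name a group and a number, so the libraries are called methylphenidate-sired libraries 2, 4 and 6 and saline-sired libraries 3, 4 and 5. The striatal label was borne out by its markers: Ppp1r1b, which encodes DARPP-32, lay between 1376 and 1651 CPM (counts as a share of the TMM-scaled library size, on the usual CPM scale) in the methylphenidate-sired libraries and between 1652 and 1898 CPM in the saline-sired ones. RNA of neighbouring tissue was present too and differed between libraries. Of the 13 choroid plexus markers, Slc4a5 had 0 counts in methylphenidate-sired libraries 4 and 6, Kcne2 had 0 in methylphenidate-sired library 6 and saline-sired library 5, and the others had reads in all 6 libraries. The 13 summed to 263, 370 and 363 CPM in methylphenidate-sired libraries 2, 4 and 6, and to 3157, 901 and 223 CPM in saline-sired libraries 3, 4 and 5. Outside saline-sired library 3, most of this sum was Enpp2. That gene had 223, 278 and 303 CPM in the methylphenidate-sired libraries and 1003, 516 and 189 CPM in the saline-sired ones. The sum therefore says little about the other choroid plexus markers outside saline-sired library 3. The 11 markers of cortical excitatory neurons summed to 978, 1005 and 1092 CPM in the methylphenidate-sired libraries and to 626, 360 and 816 CPM in the saline-sired ones. Saline-sired library 3 stood apart in choroid plexus RNA, and values without it are given beside the results that it moves most.

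Most motile cilia genes were scarce in this tissue. After a filter on low counts, 55 of the 65 genes were tested. The 10 below the filter were Cfap53, Cfap58, Cfap73, Cfap77, Cfap97d1, Cfap221, Cfap299, Rsph6a, Rsph14 and Tekt3, with at most 18 counts in any library. Cfap97d1 had 0 counts in all 6 libraries, which allows up to 3 counts, or between 0.0755 and 0.0962 CPM, per library. Per kilobase of exon, the mean level of the tested members ran from 0.0137 CPM (Dnah17) to 45.6 CPM (Cfap36).

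The abundant members mostly varied less between libraries than the scarce ones. Members with a mean of at least 3 CPM per kilobase, a limit chosen after the values were seen, were the 12 genes Cfap36, Cfap20, Cfap298, Cfap410, Cfap97, Drc1, Rsph1, Rsph3a, Tekt5, Rsph3b, Rsph9 and Cfap300. The ratio of the highest to the lowest of the 6 libraries had a median of 1.26 among these and of 2.43 among the 42 scarcer members with counts in every library. Cfap36, which encodes a protein that binds the small GTPase ARL3 of cilia, had 71.8, 74.3 and 82.0 CPM in methylphenidate-sired libraries 2, 4 and 6, and 68.1, 74.2 and 84.6 CPM in saline-sired libraries 3, 4 and 5. Its groups overlapped and its log2 fold change was 0.01 (SE 0.09, edgeR adjusted p = 0.989). Cfap20, a conserved protein of doublet microtubules, had 33.8, 31.6 and 30.7 CPM in the methylphenidate-sired libraries and 33.5, 32.5 and 28.1 CPM in the saline-sired ones (log2 fold change 0.03, SE 0.09, edgeR adjusted p = 0.949).

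The comparison of the groups asked whether transcripts of motile cilia differed in the striatum with the father's treatment. No member passed the test: 0 of 55 had an edgeR adjusted p under 0.05, against 0.0224% of all 17874 genes tested (4 genes). DESeq2 called 0 of the 24 members to which it gave an adjusted p, against 1.43% of all genes, and limma-voom called 0 of 55, against 0.0224%. Of the 55, 39 had a negative log2 fold change (methylphenidate-sired over saline-sired) with a median of -0.17, where 53% of all genes were negative with a median of -0.01. At an unadjusted edgeR p under 0.05, 8 members were lower, against 3.95% of all genes, and 1 was higher, against 5.07% of all genes. Both directions together made 9 of 55, against 9.02% of all genes. The groups did not overlap, with the methylphenidate-sired libraries lower, in 4 members, a share close to the 7.01% of all genes. They did not overlap in the higher direction in 2 members, against 7.84% of all genes. In bulk tissue, fewer cells of a type and less RNA per cell cannot be told apart.

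Saline-sired library 3 carried much of this. It held the highest value of the 6 libraries in 27 of the 55 members (49.1%), against 19.7% of all genes, while saline-sired library 4 held it in 0 members, against 20.3% of all genes. The mean log2 level of the tested members, centred over the libraries, was -0.03, -0.06 and -0.17 in methylphenidate-sired libraries 2, 4 and 6, and 0.44, -0.10 and -0.08 in saline-sired libraries 3, 4 and 5. The methylphenidate-sired libraries thus lay beside saline-sired libraries 4 and 5, and saline-sired library 3 lay above all 5. Without it, 30 of 55 members were negative with a median of -0.03, beside 52.3% and -0.01 for all genes, and 1 member was lower at an unadjusted p under 0.05, against 2.98% of all genes. The choroid plexus markers, given above for each library, were highest in the same library.

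**Figure D1:**
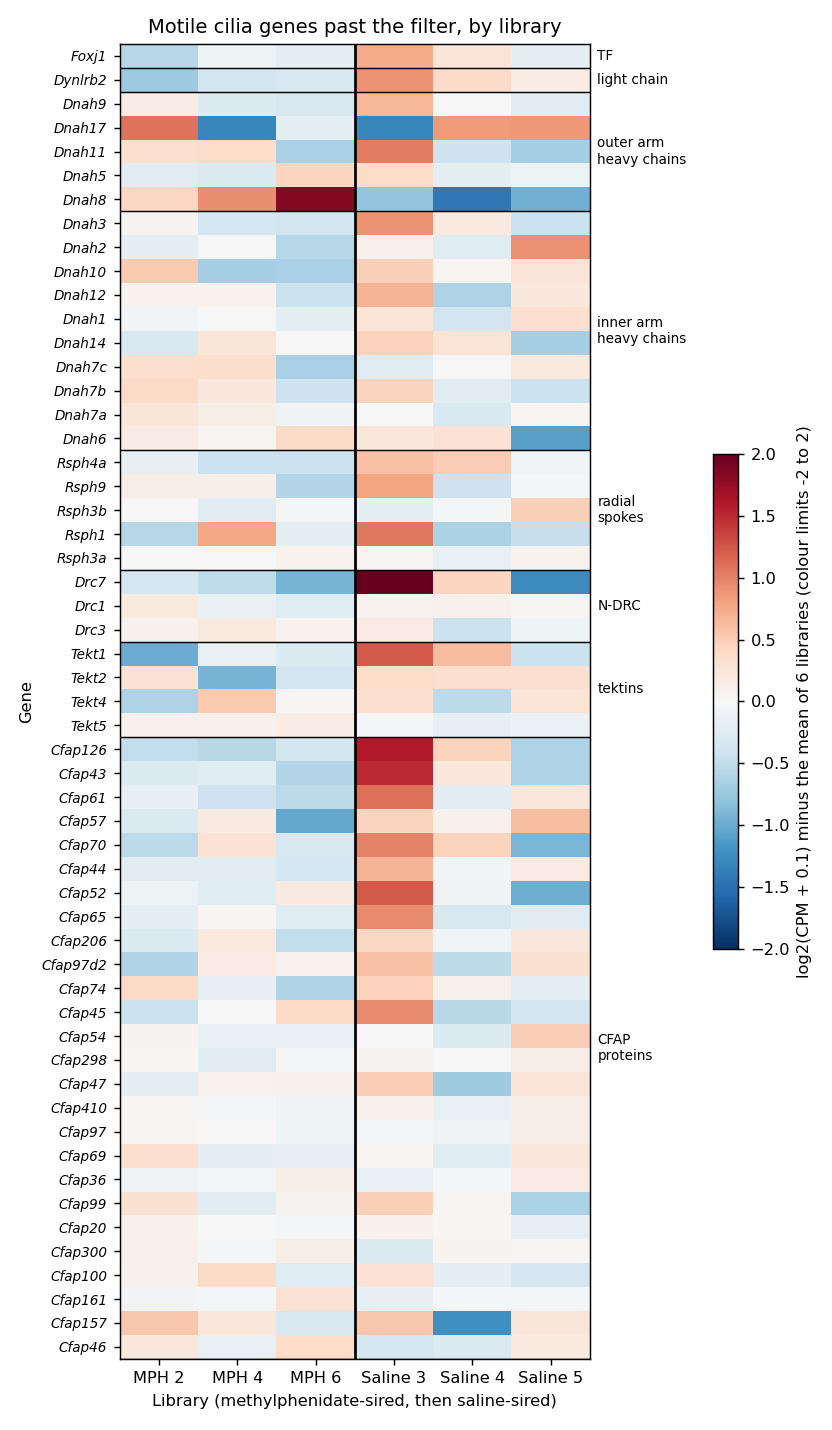
Levels of the 55 tested motile cilia genes in each library, as log2(CPM + 0.1) minus the mean of the 6 libraries, with genes in rows by role and libraries in columns. Saline-sired library 3 is highest in 27 of the 55 genes, and Dnah8 is the gene with high values in the 3 methylphenidate-sired libraries.

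Foxj1 (Gene ID 15223, chromosome 11, 116330704 to 116335499 in mm10) had 4.05, 5.70 and 5.33 CPM in methylphenidate-sired libraries 2, 4 and 6, and 10.2, 7.28 and 5.36 CPM in saline-sired libraries 3, 4 and 5. The groups overlapped, since saline-sired library 5 lay below methylphenidate-sired library 4. The means were 5.02 ± 0.864 CPM in the methylphenidate-sired and 7.60 ± 2.42 CPM in the saline-sired group (SD, n = 3 each). The log2 fold change of -0.60 (edgeR adjusted p = 0.517, SE 0.24) did not pass the test, and it was -0.34 without saline-sired library 3.

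Dynlrb2 (Gene ID 75465, chromosome 8, 116505015 to 116515915), which encodes a roadblock-type dynein light chain of ciliated cells, was among the scarce members. It had 14, 18 and 20 counts in methylphenidate-sired libraries 2, 4 and 6, and 60, 33 and 27 counts in saline-sired libraries 3, 4 and 5. Scaled to library size these were 0.426, 0.563 and 0.592 CPM in the methylphenidate-sired libraries and 1.51, 1.04 and 0.866 CPM in the saline-sired ones. The groups did not overlap, and the log2 fold change of -1.11 (edgeR adjusted p = 0.463, SE 0.35) did not pass the test. Without saline-sired library 3 it was -0.85. Its paralogue Dynlrb1, a light chain of cytoplasmic dynein, had 69.6, 72.8 and 75.2 CPM in the methylphenidate-sired libraries and 68.5, 70.0 and 70.1 CPM in the saline-sired ones (log2 fold change 0.06, SE 0.06, edgeR adjusted p = 0.790).

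The promoter of Dynlrb2 matched a pattern of the full X-box, the imperfect palindrome bound by RFX factors, and so did those of 7 other members. Of the 54 members with a promoter in the RefSeq table (assembly GRCm38.p6, which is mm10, taken from 250 bases before to 50 after each annotated start), 8 held it on either strand (14.8%), as did 1.73% of 17492 protein-coding genes and 1.75% of all 27025 genes. These 8 were Cfap44, Cfap45, Cfap58, Cfap99, Cfap298, Dynlrb2, Rsph3b and Tekt2. The X-box arm GTTGCC, searched on both strands and part of many full X-boxes, was in 20 members (37%), against 14.3% of protein-coding genes. The forkhead core TGTTTAC, the kind of site that FOXJ1 binds, was in 4 members (7.41%), against 3.45% of protein-coding genes, and those 4 were Cfap20, Cfap43, Dnah17 and Tekt3. A match describes these letters and is not evidence of binding.

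The promoters shown belong to Dynlrb2 (chr8:116504765-116505064, plus strand), Cfap44 (chr16:44394549-44394848, plus strand) and Tekt2 (chr4:126325639-126325938, minus strand, the upstream of its annotated starts that hold the motif), whose groups did not overlap. The promoter of Cfap298 (chr16:90934800-90935099, minus strand) is shown beside them because it has 2 X-boxes while its transcript hardly varied. Capitals mark the full X-box, and each sequence runs 5′ to 3′ on the strand of its gene.
Dynlrb2: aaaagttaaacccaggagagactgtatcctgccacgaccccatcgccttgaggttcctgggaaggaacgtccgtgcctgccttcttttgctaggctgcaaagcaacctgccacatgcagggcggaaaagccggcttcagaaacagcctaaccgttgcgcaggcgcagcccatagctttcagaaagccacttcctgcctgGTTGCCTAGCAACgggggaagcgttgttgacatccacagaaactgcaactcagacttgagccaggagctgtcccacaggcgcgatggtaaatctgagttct
Cfap44: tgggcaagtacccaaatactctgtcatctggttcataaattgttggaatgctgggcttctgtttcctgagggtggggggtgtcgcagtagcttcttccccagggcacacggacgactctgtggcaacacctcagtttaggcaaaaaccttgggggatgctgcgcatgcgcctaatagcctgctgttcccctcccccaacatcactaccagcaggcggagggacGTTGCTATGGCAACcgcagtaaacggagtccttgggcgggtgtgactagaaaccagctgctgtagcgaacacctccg
Tekt2: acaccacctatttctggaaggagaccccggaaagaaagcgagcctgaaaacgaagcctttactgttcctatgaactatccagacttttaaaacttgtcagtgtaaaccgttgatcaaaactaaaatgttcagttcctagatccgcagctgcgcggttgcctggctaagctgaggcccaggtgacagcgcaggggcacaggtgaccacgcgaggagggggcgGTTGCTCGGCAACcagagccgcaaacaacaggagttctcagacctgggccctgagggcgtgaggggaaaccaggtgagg
Cfap298: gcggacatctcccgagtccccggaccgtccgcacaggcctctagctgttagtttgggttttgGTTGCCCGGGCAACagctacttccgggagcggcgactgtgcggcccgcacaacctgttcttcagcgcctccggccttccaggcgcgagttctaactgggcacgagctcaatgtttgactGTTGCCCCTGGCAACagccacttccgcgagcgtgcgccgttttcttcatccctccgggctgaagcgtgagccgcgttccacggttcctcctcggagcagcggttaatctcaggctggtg

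The promoters shown were picked by the profiles of their genes, so they do not tell how an X-box goes with a profile. Of the other members that matched the full X-box pattern, Cfap45, Cfap99 and Rsph3b overlapped between the groups, and Cfap58 was below the filter. Cfap298, a factor of dynein arm assembly, had 18.0, 15.1 and 17.1 CPM in the methylphenidate-sired libraries and 18.2, 17.7 and 19.3 CPM in the saline-sired ones (log2 fold change -0.14, SE 0.10, edgeR adjusted p = 0.714). Exons of Cfap298 overlap those of annotated genes on the other strand over 56.6% of their length, and the sources used here do not say whether reads were counted by strand. Tekt2, a tektin of the doublet wall, had 1.00, 0.376 and 0.592 CPM in methylphenidate-sired libraries 2, 4 and 6, and 1.06, 1.04 and 1.03 CPM in saline-sired libraries 3, 4 and 5. Its groups were parted by a narrow gap at methylphenidate-sired library 2, and its log2 fold change of -0.66 (edgeR adjusted p = 0.657, SE 0.39) did not pass the test. Exons of Tekt2 overlap a gene on the other strand over 25.7% of their length.

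Of the 5 outer arm heavy chain genes, Dnah5 and Dnah9 encode the motor subunits of ependymal and airway cilia. Dnah9 had 3.50, 2.60 and 2.51 CPM in the methylphenidate-sired libraries and 5.03, 3.17 and 2.69 CPM in the saline-sired ones (log2 fold change -0.34, SE 0.27, edgeR adjusted p = 0.736). Dnah5 had 2.53, 2.41 and 3.99 CPM in the methylphenidate-sired libraries and 3.83, 2.54 and 2.73 CPM in the saline-sired ones (log2 fold change -0.03, SE 0.27, edgeR adjusted p = 0.986). Both overlapped between the groups. Without saline-sired library 3 the log2 fold change of Dnah9 was -0.03 and that of Dnah5 was 0.17.

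Dnah8 (Gene ID 13417, chromosome 17, 30626935 to 30875762), an outer arm heavy chain best known from sperm tails, had the highest fold change of the tested members. It had 27, 39 and 80 counts in methylphenidate-sired libraries 2, 4 and 6, and 12, 5 and 8 counts in saline-sired libraries 3, 4 and 5, which gave 0.822, 1.22 and 2.37 CPM in the methylphenidate-sired libraries and 0.302, 0.157 and 0.257 CPM in the saline-sired ones. Each methylphenidate-sired library lay above each saline-sired one. The log2 fold change was 2.59 (SE 0.50, unadjusted p = 0.000733, edgeR adjusted p = 0.362) and did not pass the test. It stayed between 2.07 and 2.90 when each library was left out in turn. Spread over a transcript model of 16968 bases, the level was 0.0503 CPM per kilobase. Exons of Dnah8 overlap annotated genes on the other strand over 3.83% of their length.

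The 10 inner arm heavy chain genes ran from -0.59 (Dnah3) to 0.26 (Dnah6) in log2 fold change, and 0 reached an unadjusted edgeR p under 0.05. Dnah3 was at -0.15 without saline-sired library 3. Dnah6 had 28.3, 26.2 and 33.3 CPM in methylphenidate-sired libraries 2, 4 and 6, and 29.8, 31.3 and 12.0 CPM in saline-sired libraries 3, 4 and 5. Saline-sired library 5 was the low one, and without it the log2 fold change of Dnah6 was -0.05. Dnah1, whose loss is known to impair sperm tails, had 12.3, 12.9 and 11.4 CPM in the methylphenidate-sired libraries and 15.6, 9.83 and 16.4 CPM in the saline-sired ones (log2 fold change -0.19, SE 0.19, edgeR adjusted p = 0.789), and stood at -0.11 without saline-sired library 3. The counts of Dnah7a, Dnah7b and Dnah7c are uncertain among themselves, because their transcripts are between 96.9% and 97.3% identical over at least 12199 aligned bases.

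Among the radial spoke genes, Rsph4a (Gene ID 212892, chromosome 10, 33905111 to 33916021), which encodes a protein of the spoke head, lay lower in the methylphenidate-sired group whichever library was left out. It had 2.59, 2.13 and 2.13 CPM in methylphenidate-sired libraries 2, 4 and 6, and 4.43, 4.18 and 2.79 CPM in saline-sired libraries 3, 4 and 5. The groups did not overlap, and the log2 fold change of -0.74 (edgeR adjusted p = 0.459, SE 0.23) did not pass the test. It was -0.61 without saline-sired library 3 and between -0.90 and -0.66 without each of the others. The edgeR p-values of these fits were between 0.00215 and 0.0432 unadjusted and between 0.125 and 0.818 adjusted. Many other members also stayed negative whichever library was left out, among them Dynlrb2, Foxj1, Cfap44, Cfap61, Tekt1, Drc7, Cfap126 and Cfap43. The share of all genes that kept their sign in this way was not counted. Rsph1, a neighbour of RSPH4A in the spoke head, behaved otherwise, with 4.57, 11.7 and 6.01 CPM in the methylphenidate-sired libraries and 14.3, 4.33 and 4.91 CPM in the saline-sired ones. It was high in 1 library of each group, and its log2 fold change was -0.09 (SE 0.50, edgeR adjusted p = 0.977) with all libraries and 0.68 without saline-sired library 3. Rsph3a had 10.2, 10.3 and 10.9 CPM in the methylphenidate-sired libraries and 10.5, 9.26 and 10.8 CPM in the saline-sired ones, and its counts are uncertain because Rsph3b is 99.4% identical over 1823 bases.

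**Figure D2:**
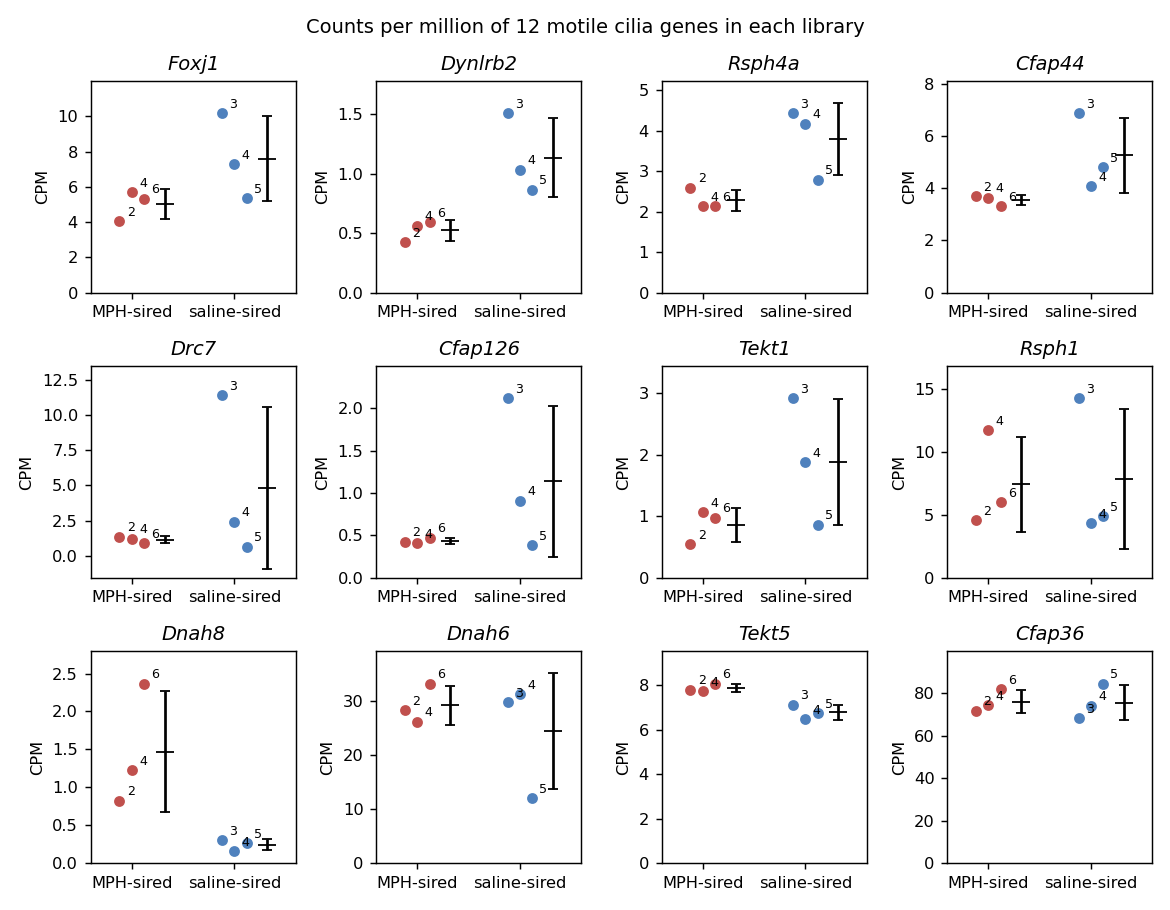
Levels in CPM of 12 motile cilia genes, with a point for each library, labelled by its number, and the group mean with its SD (n = 3) beside the points. Dynlrb2, Rsph4a and Cfap44 are lower and Dnah8 and Tekt5 higher in every methylphenidate-sired library than in any saline-sired one, while Drc7, Cfap126 and Tekt1 are set apart by saline-sired libraries 3 and 4.

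Members of the nexin-dynein regulatory complex spanned the whole range from flat to steep. Drc1, needed to assemble the complex, had 19.1, 15.2 and 14.2 CPM in the methylphenidate-sired libraries and 17.6, 17.8 and 17.1 CPM in the saline-sired ones (log2 fold change -0.11, SE 0.12, edgeR adjusted p = 0.821). Drc3 had 7.40, 7.98 and 7.37 CPM in the methylphenidate-sired libraries and 7.85, 5.18 and 6.54 CPM in the saline-sired ones (log2 fold change 0.21, SE 0.17, edgeR adjusted p = 0.734), and stood at 0.37 without saline-sired library 3. Neither gene separated the groups. Drc7 (Gene ID 330830, chromosome 8, 95055103 to 95078141) had 1.37, 1.22 and 0.888 CPM in methylphenidate-sired libraries 2, 4 and 6, and 11.4, 2.42 and 0.674 CPM in saline-sired libraries 3, 4 and 5. The saline-sired libraries therefore lay on both sides of the methylphenidate-sired ones. Its log2 fold change was -2.07 (SE 0.84, edgeR adjusted p = 0.516), the most negative of the tested members, and -0.42 without saline-sired library 3.

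Drc7 went through the saline-sired libraries in the same order as the choroid plexus marker Ttr, the transthyretin gene, which had 14.7, 61.3 and 33.6 CPM in methylphenidate-sired libraries 2, 4 and 6, and 1905, 306 and 9.88 CPM in saline-sired libraries 3, 4 and 5. Cfap126, whose product positions basal bodies, had 0.426, 0.407 and 0.473 CPM in the methylphenidate-sired libraries and 2.11, 0.911 and 0.385 CPM in the saline-sired ones (log2 fold change -1.39, SE 0.58, edgeR adjusted p = 0.523). Cfap43, a protein that tethers inner arm motors, had 1.16, 1.19 and 0.917 CPM in the methylphenidate-sired libraries and 4.20, 1.66 and 0.898 CPM in the saline-sired ones (log2 fold change -1.06, SE 0.51, edgeR adjusted p = 0.588). Tekt1 had 0.548, 1.06 and 0.976 CPM in the methylphenidate-sired libraries and 2.92, 1.88 and 0.866 CPM in the saline-sired ones (log2 fold change -1.14, SE 0.46, edgeR adjusted p = 0.515). All 4 genes were highest in saline-sired library 3, next in 4 and lowest in 5 within the saline-sired group, the order of the summed choroid plexus markers. Foxj1, Dynlrb2, Rsph4a and Dnah9 had this order too, while Cfap44, Cfap61 and Rsph9 did not. The share of all genes with this order was not counted. Among the methylphenidate-sired libraries, Ttr was highest in library 4 and Drc7 in library 2. Without saline-sired library 3 the log2 fold changes were -0.42 for Drc7, -0.57 for Cfap126, -0.24 for Cfap43 and -0.68 for Tekt1. The part of choroid plexus RNA in these values was not tested.

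**Figure D3:**
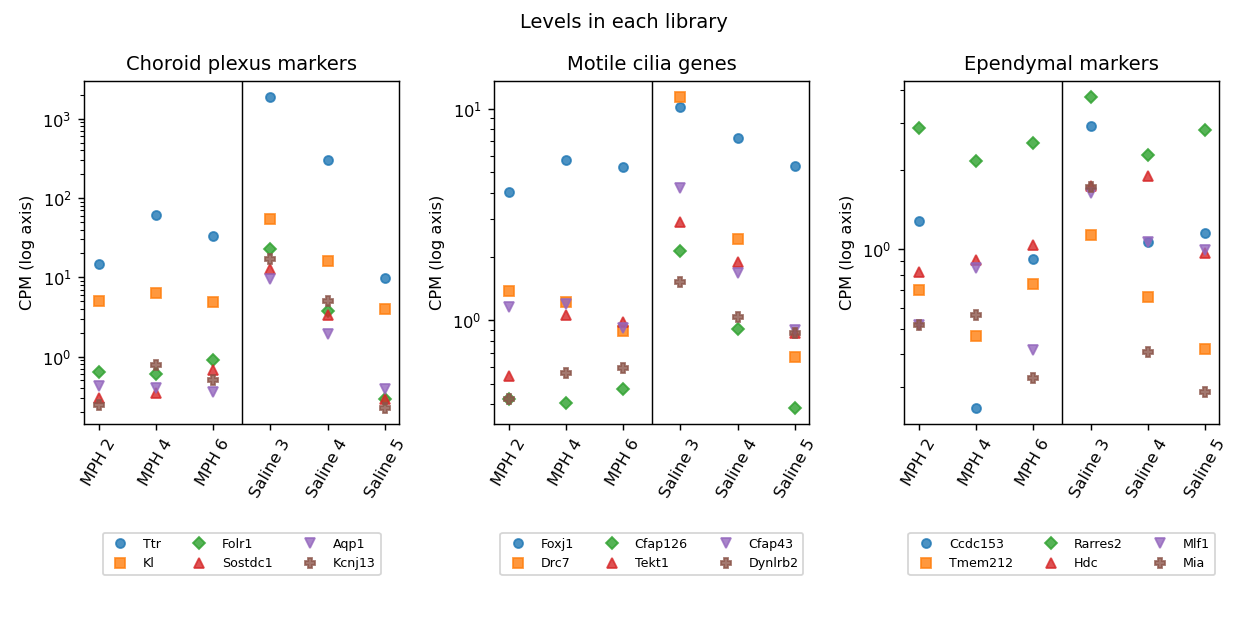
Levels in each library (CPM, log axis) of 6 choroid plexus markers, 6 motile cilia genes and 6 ependymal markers outside the axoneme. The choroid plexus markers and Drc7, Cfap126, Cfap43 and Tekt1 are highest in saline-sired library 3 and next in saline-sired library 4. The ependymal markers shown span a narrower range than the choroid plexus markers shown, and all but Hdc are also highest in saline-sired library 3.

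Other tektin and CFAP genes gave smaller differences. Tekt5, a tektin best known from sperm tails, had 7.79, 7.73 and 8.08 CPM in the methylphenidate-sired libraries and 7.12, 6.47 and 6.74 CPM in the saline-sired ones, so the groups did not overlap (log2 fold change 0.21, SE 0.12, edgeR adjusted p = 0.627). Cfap44 (Gene ID 212517, chromosome 16, 44394742 to 44482694), the partner of CFAP43 in the tether, had 3.68, 3.63 and 3.31 CPM in the methylphenidate-sired libraries and 6.87, 4.08 and 4.81 CPM in the saline-sired ones. Its groups did not overlap either, with a log2 fold change of -0.57 (edgeR adjusted p = 0.491, SE 0.22) that was -0.33 without saline-sired library 3. Cfap61, which belongs to a calmodulin-binding complex at the base of the spokes, had 1.58, 1.31 and 1.21 CPM in the methylphenidate-sired libraries and 3.95, 1.54 and 2.12 CPM in the saline-sired ones (log2 fold change -0.89, SE 0.36, edgeR adjusted p = 0.514), and -0.42 without saline-sired library 3. Cfap46 of the central pair had 6.21, 4.79 and 6.92 CPM in the methylphenidate-sired libraries and 4.15, 4.33 and 6.09 CPM in the saline-sired ones (log2 fold change 0.30, SE 0.21, edgeR adjusted p = 0.706), and stood at 0.19 without saline-sired library 3. The 26 tested CFAP genes ran from -1.39 (Cfap126) to 0.30 (Cfap46), with 18 negative and a median of -0.15.

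**Figure D4:**
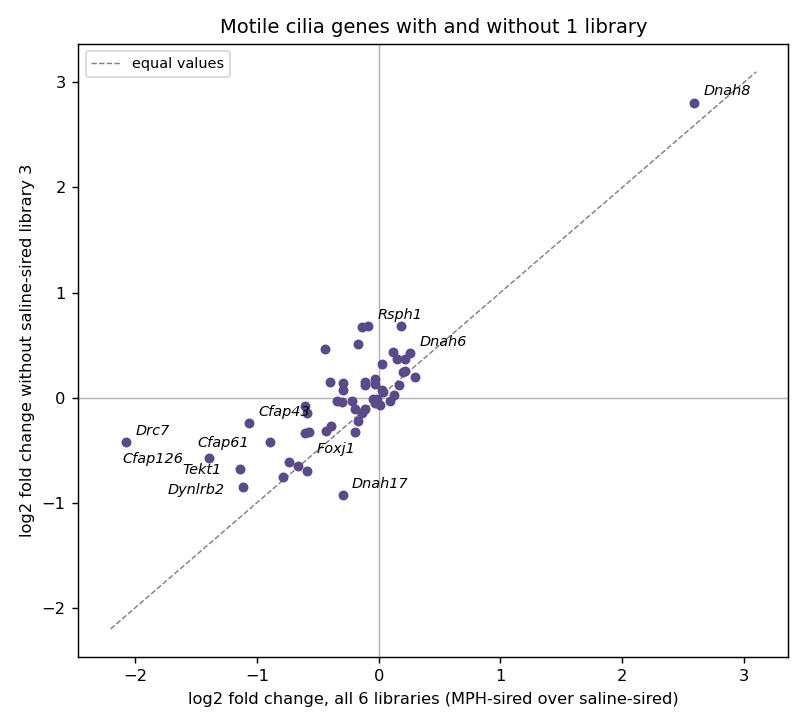
Log2 fold change (methylphenidate-sired over saline-sired) of each tested motile cilia gene with all 6 libraries (x axis) and without saline-sired library 3 (y axis), with a dashed line where both are equal. Drc7, Cfap126 and Cfap43 lie far above the line at its lower left, with Tekt1 nearer to it. Rsph1 and Cfap52 are among several other members that lie farther above the line than Tekt1, with values above 0 on the y axis. Dnah8 keeps a value above 2 on both axes.

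Genes of the motile cilium outside the rule were read from the same fit, for 69 genes in 7 lists. Of the 59 tested, 44 were negative (median -0.16), where 53% of all genes were negative. At an unadjusted edgeR p under 0.05, 8 were lower, against 3.95% of all genes, and 1 was higher, against 5.07%. The groups did not overlap in 9 genes in the lower direction, against 7.01% of all genes, and in 1 in the higher direction, against 7.84%. None passed the edgeR test (0 of 59), and 0 passed by DESeq2 or limma-voom. Without saline-sired library 3, 35 were negative with a median of -0.08, beside 52.3% and -0.01 for all genes. In that fit 3 were lower at an unadjusted edgeR p under 0.05, against 2.98% of all genes. The 10 tested genes of the central pair and spokes were all negative (median -0.32), with Spag16 at -1.41 (SE 0.47) and Nme5 at -0.37 (SE 0.16), but without saline-sired library 3 it was 5 of 10 (median 0.01), with Spag16 at -0.83 and Nme5 at -0.30. Of the docking complex and the ruler that space the dynein arms, 5 of 6 were negative (median -0.21), with Armc4 at -1.44 (SE 0.43) and Ccdc114 at -0.70 (SE 0.44). With saline-sired library 3 left out, 4 of 6 were negative (median -0.14), with Armc4 at -1.31 and Ccdc114 at -0.18. Armc4 had 0.152, 0.250 and 0.207 CPM in the methylphenidate-sired libraries and 0.654, 0.440 and 0.577 CPM in the saline-sired ones, without overlap (edgeR adjusted p = 0.452).

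Of the microtubule inner proteins, 6 of 8 were negative (median -0.21), among them Spag8 at -1.09 (SE 0.34), while Efcab6 stood at 1.05 (SE 0.33). With saline-sired library 3 left out, 5 of 8 were negative (median -0.08), with Spag8 at -0.87 and Efcab6 at 1.28. Efcab6 had 3.07, 2.94 and 3.76 CPM in the methylphenidate-sired libraries and 2.01, 0.816 and 1.86 CPM in the saline-sired ones, and it was the 1 gene of the 59 that was higher at an unadjusted p under 0.05 (edgeR adjusted p = 0.463). Of the dynein arm assembly factors, 7 of 10 were negative (median -0.09), with Ccdc103 at -0.62 (SE 0.27) and Zmynd10 at -0.45 (SE 0.27), which were -0.36 and -0.21 without saline-sired library 3. The light chains gave 4 of 7 negative (median -0.10), with Dynlt1a at -0.59 (SE 0.18) and Dnal4 at -0.10 (SE 0.07), but 3 of 7 were negative (median 0.04) without saline-sired library 3. The other genes of the nexin-dynein regulatory complex gave 3 of 6 negative (median 0.05), with Iqcd at -0.78 (SE 0.42) and Iqcg at -0.40 (SE 0.23). That median was 0.13, Iqcd was at -0.44 and Iqcg at -0.59 without saline-sired library 3.

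Of the upstream regulators of multiciliation, 9 of 12 were negative with a median of -0.16, and 8 of 12 with a median of -0.09 without saline-sired library 3. Rfx4 had -0.21 (SE 0.08, edgeR adjusted p = 0.507) and E2f4, a factor of centriole amplification, had -0.19 (SE 0.08, edgeR adjusted p = 0.541). Rfx3, the RFX factor most tied to ependymal cilia, had 78.4, 74.2 and 62.6 CPM in the methylphenidate-sired libraries and 65.9, 64.0 and 74.3 CPM in the saline-sired ones (log2 fold change 0.08, SE 0.10, edgeR adjusted p = 0.849). The dynein intermediate chains stand in the table under older symbols and were added after the values were seen. Dnaic1 had 2.04, 3.35 and 1.95 CPM in the methylphenidate-sired libraries and 4.15, 3.55 and 2.60 CPM in the saline-sired ones (log2 fold change -0.49, SE 0.28, edgeR adjusted p = 0.637). Dnaic2 had 0.761, 0.782 and 1.12 CPM in the methylphenidate-sired libraries and 2.97, 1.70 and 0.994 CPM in the saline-sired ones (log2 fold change -1.09, SE 0.42, edgeR adjusted p = 0.494). Dnaic1 was at -0.33 and Dnaic2 at -0.60 without saline-sired library 3. The intermediate chain Wdr63 had 0.487, 0.782 and 0.503 CPM in the methylphenidate-sired libraries and 2.04, 0.722 and 0.738 CPM in the saline-sired ones. Its log2 fold change was -0.99 (SE 0.49, edgeR adjusted p = 0.592), and that of Wdr78 was -0.26 (SE 0.12, edgeR adjusted p = 0.570). Wdr63 was highest in saline-sired library 3, while saline-sired libraries 4 and 5 lay within the range of the methylphenidate-sired ones. The fold changes of Wdr63 and Wdr78 without saline-sired library 3 were not read.

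Transport genes shared by motile and primary cilia were read in the same way. Of 32 genes of intraflagellar transport and the Bardet-Biedl complex, 13 were negative (median 0.01), with Kif3b at 0.16 (SE 0.06) and Ift43 at -0.39 (SE 0.17). Of 10 genes of the neuronal primary cilium, 8 were negative (median -0.03), with the somatostatin receptor gene Sstr3 at 0.74 (SE 0.21, edgeR adjusted p = 0.452) and Tulp3 at -0.19 (SE 0.09). The difference between these lists and the motile cilia genes was not tested.

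Markers of other cells were read beside the cilia genes. All 14 tested ependymal markers outside the axoneme were negative (median -0.51), 2 of them at an unadjusted p under 0.05, against 3.95% of all genes lower at that p (Mlf1 at -1.06 and Calml4 at -2.84), and 0 past the edgeR test, and 12 of the 15 listed were highest in saline-sired library 3. Their sum was 108, 145 and 129 CPM in the methylphenidate-sired libraries and 133, 190 and 127 CPM in the saline-sired ones. Most of it was S100b, with 81.2, 120 and 105 CPM in the methylphenidate-sired libraries and 82.0, 161 and 99.7 CPM in the saline-sired ones. The sum therefore says little about the other ependymal markers. The ependymal gene Ccdc153 had 1.28, 0.250 and 0.917 CPM in the methylphenidate-sired libraries and 2.92, 1.07 and 1.15 CPM in the saline-sired ones, and Tmem212 had 0.700, 0.469 and 0.740 CPM in the methylphenidate-sired libraries and 1.13, 0.659 and 0.417 CPM in the saline-sired ones. None of the listed ependymal genes was at 0 in every library. Without saline-sired library 3, 11 of 14 ependymal markers were negative with a median of -0.29. In that fit 0 of 14 were lower at an unadjusted edgeR p under 0.05, against 2.98% of all genes. All 12 tested choroid plexus markers stayed negative without saline-sired library 3, with a median of -1.36, against -3.02 with it. Their part in the cilia results was not tested.

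Of the remaining marker lists, 8 of 10 genes of subventricular zone progenitors and neuroblasts were negative (median -0.16), 3 of 7 astrocyte genes (median 0.00) and 6 of 8 meningeal and vessel genes (median -0.09). Leaving out saline-sired library 3, these were 6 of 10 (median -0.05), 5 of 7 (median -0.06) and 4 of 8 (median -0.01). All 10 medium spiny neuron markers were negative (median -0.21) and all 11 cortical markers were positive (median 0.88). The groups did not overlap in the lower direction in 9 of the 10 medium spiny neuron markers, against 7.01% of all genes. They did not overlap in the higher direction in 8 of the 11 cortical markers, against 7.84% of all genes. No gene of these lists passed the edgeR test. DESeq2 called 2 of 10 medium spiny neuron genes lower (Adora2a and Tac1) and 1 of 11 cortical genes higher (Neurod2), against 1.43% of all genes in either direction.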

How the data were processed

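Striatal RNA of 6 mice was sequenced. Per the submitters' processing notes, bcl2fastq 2.20.0, Trimmomatic, HISAT2 2.1.0, StringTie 2.1.3b and build mm10 were used. The sources used here do not give settings, strandedness or how reads with several matches were treated. The table deposited by the authors holds whole-number read counts per RefSeq gene. The 12 columns of FPKM and TPM were not used. Each column could be tied to its group but to no labelled animal, so no sex covariate was fitted. Every pair of libraries differed by more than sampling noise (chi-square per gene of at least 7.98).

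The counts were fitted over the whole table with edgeR 4.0.16 (R 4.3.3; TMM scaling, filterByExpr, quasi-likelihood F test, Benjamini-Hochberg over 17874 genes, threshold 0.05), and each SE is the log2 fold change divided by the root of F. DESeq2 1.42.0, limma-voom (limma 3.58.1), 2 other scalings, no filter and each library left out were alternatives. The scripts were tested on simulated data. Lengths and exon overlaps are from GENCODE vM21, coordinates and promoters from RefSeq GRCm38.p6, and copies (at least 95% identity over 200 bases) from blastn 2.17.0. Of the 65 members, 20 have exons that overlap another gene and 9 have near-identical copies.

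The text names Foxj1, Dynlrb2, the 10 members of lowest p, the 2 most abundant per kilobase in each role and the 3 of highest fold change, with the 2 genes of lowest p of each list of cilia genes and, from the marker lists, genes whose values stand beside a result. Tekt2, Cfap298, Dnah3, Dnah17, Rfx3, Dynlrb1, Deup1, Gmnc, Cfap52, Cfap65, Rsph9 and the intermediate chains were added after their values were seen. The members and lists were chosen with earlier results of these data known.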

Additional observations from a re-analysis of the deposited data

How the results depend on the processing

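With a threshold of 0.05 on the edgeR adjusted p, 0 motile cilia genes and 0 of the other motile cilia genes passed under every alternative listed, DESeq2 and limma-voom included. The number of all genes past the test was 4, against 183 with DESeq2 and between 1 (without methylphenidate-sired library 6) and 4 when each library was left out. The 8 motile cilia genes lower at an unadjusted p under 0.05 became 3 with limma-voom, and between 1 (saline-sired library 3 omitted) and 10 (saline-sired library 5 omitted) with each library left out, where those higher numbered 1 to 2. Among the other motile cilia genes the 8 became 4 with DESeq2 and 3 to 9 with each library left out, and those higher numbered 1 to 2. The share of all genes lower at that p moved as well. It ran from 2.4% (methylphenidate-sired library 4 omitted) to 5.34% (saline-sired library 5 omitted), with 2.98% when saline-sired library 3 was omitted. The causes were not tested.

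The median log2 fold change of the motile cilia genes lay between -0.35 and -0.03 with each library left out and between -0.19 and -0.13 under the other alternatives. Signs changed for some genes. Among the genes named by the rule, with each library left out, Cfap20 ran from -0.0306 to 0.0764, Cfap36 from -0.0657 to 0.108, Rsph3a from -0.0272 to 0.0929, Dnah5 from -0.299 to 0.174, Dnah6 from -0.0509 to 0.475 and Rsph1 from -0.559 to 0.682. Other members changed sign too, among them Cfap52 (-0.44 with all libraries, 0.47 without saline-sired library 3), Cfap65 (-0.40 and 0.15) and Rsph9 (-0.29 and 0.14). With unscaled library totals Cfap36 was at -0.0131. No paired analysis was possible because the columns do not carry the labels' replicate numbers. At 14 to 60 counts per library for a gene such as Dynlrb2, counting error alone is wide.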

Other observations

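Deup1, which drives the mass production of centrioles in multiciliated cells, was below the filter and was not tested. It had 0, 0 and 0 counts in methylphenidate-sired libraries 2, 4 and 6, and 12, 5 and 8 counts in saline-sired libraries 3, 4 and 5. A count of 0 allows up to 3 counts in a library. Deup1 was picked after its values were seen, and the share of genes below the filter that part in this way was not counted. Gmnc, a regulator of multiciliation that was below the filter too, had 0.122, 0.250 and 0.266 CPM in the methylphenidate-sired libraries and 1.86, 0.220 and 0.160 CPM in the saline-sired ones.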
